A study of Mus musculus with 19 samples.

Results

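The carbonic anhydrases Car2, Car4, Car12 and Car14 were followed in cultured mouse cells in 2 states, the naive embryonic stem cell (ESC) and the epiblast-like cell (EpiLC) that it becomes on leaving naive pluripotency. All probes annotated to these 4 genes were taken, which gave 5 of the 25697 probes of the array. The genes were chosen because 2 of them, Car4 and Car14, responded in opposite directions to tamoxifen in EpiLC, so the values of that contrast are given as a description and without a test. Of the 4 genes, 3 (Car4, Car14 and Car2, with 1 probe each) passed the filter on dim probes, which asked for 3 or more arrays with a detection p-value under 0.01. Car12 and the other Car2 probe did not pass it.

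Total RNA was hybridized to 19 Illumina bead arrays, which hold 12 samples in 4 groups of 3. The groups are EpiLC given tamoxifen at 1 µM for 36 h to delete Foxd3, a forkhead transcription factor, EpiLC given ethanol, ESC given tamoxifen in the same way, and ESC given ethanol, with both ethanol groups as the wild-type controls. All cells grew in serum-containing knockout DMEM, and the ESC also received Lif and the 2i inhibitors of GSK and MEK. Arrays were run in 2 hybridization rounds. All EpiLC ethanol samples were hybridized in round 1 alone, and the labels do not say how the EpiLC were derived or which promoter drives the deletion. Whether the 3 samples of a group came from separate cultures is not stated, so every p-value rests on a spread between samples that may be technical.

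Carbonic anhydrases speed the conversion of carbon dioxide and water to bicarbonate and a proton, and with bicarbonate and proton transporters they set the acid-base balance inside and around a cell. The family divides by where the enzyme sits. Car2 is the fast enzyme of the cytosol, Car4 is held on the outer face of the membrane by a lipid anchor, and Car12 and Car14 span the membrane with the catalytic domain outside.

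The promoters of the members show what surrounds their start sites, and were searched for the forkhead core TGTTTA, the letters that forkhead factors commonly recognise, and for TATAAA, on both strands. The sequences are RefSeq promoters on GRCm38.p6 from 250 bases before to 50 after the start site, with a match in capitals. Entries were found for 3 of the 4 genes, Car4 at chr11:84957504-84957803 on the plus strand, Car14 at chr3:95904636-95904935 on the minus strand and Car12 at chr9:66713436-66713735 on the plus strand.
Car4: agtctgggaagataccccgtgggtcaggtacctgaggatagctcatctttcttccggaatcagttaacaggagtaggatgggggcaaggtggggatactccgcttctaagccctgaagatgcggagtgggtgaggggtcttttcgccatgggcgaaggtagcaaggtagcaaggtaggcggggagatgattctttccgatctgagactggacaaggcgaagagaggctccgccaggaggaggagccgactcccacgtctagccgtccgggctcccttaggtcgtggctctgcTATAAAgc
Car14: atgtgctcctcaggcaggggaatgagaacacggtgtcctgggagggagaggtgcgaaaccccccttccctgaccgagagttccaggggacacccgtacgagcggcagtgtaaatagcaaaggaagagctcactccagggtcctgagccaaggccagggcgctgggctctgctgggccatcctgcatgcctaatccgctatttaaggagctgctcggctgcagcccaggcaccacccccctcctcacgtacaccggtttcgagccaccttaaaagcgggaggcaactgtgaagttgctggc
Car12: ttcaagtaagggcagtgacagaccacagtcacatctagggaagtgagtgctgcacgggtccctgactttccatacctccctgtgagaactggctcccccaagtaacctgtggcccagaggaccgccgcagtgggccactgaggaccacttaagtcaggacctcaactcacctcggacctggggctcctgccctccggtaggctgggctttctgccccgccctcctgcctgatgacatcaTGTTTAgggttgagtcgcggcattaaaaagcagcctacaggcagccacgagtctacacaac
Car12 holds the 1 forkhead core of the 3 promoters, beginning at position -11, and Car4 holds TATAAA beginning at position 43, counted from 1 at the start site. Car14 holds neither. TGTTTA occurs in 13.4% of the 32851 RefSeq promoters and TATAAA in 13.6%. The 3 promoters have a GC content of 57.3% (Car4), 61.0% (Car14) and 58.3% (Car12), against a median of 52.7% over all promoters. They hold 15, 13 and 9 CG dinucleotides in the same order, against a median of 7.

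The labelled cell types carried their tested markers, while Nr0b1 of the naive list and Sox3 of the epiblast list were detected on no array. Over the 7 naive ESC markers that were tested, the summed normalized intensity per sample was 11060 to 12155 in EpiLC with tamoxifen and 8504 to 10388 in EpiLC with ethanol, against 55101 to 57839 in ESC with tamoxifen and 54949 to 57703 in ESC with ethanol. Over the 4 epiblast markers tested it was 27905 to 31541 in EpiLC with tamoxifen and 33087 to 34779 in EpiLC with ethanol, against 7009 to 8924 in ESC with tamoxifen and 7419 to 8447 in ESC with ethanol. Dnmt3b, the brightest of the 4, had mean log2 levels of 12.85 and 12.87 in ESC with tamoxifen and with ethanol. Its EpiLC levels were 14.23 and 14.63 in the same order. Fgf5, a growth factor of the formative epiblast, was detected on all EpiLC arrays and on 0 ESC arrays. The targeted gene could not be followed: the 1 Foxd3 probe stood above background on 0 of 19 arrays (smallest detection p-value 0.239), so the deletion rests on the labels. Between 10330 and 11481 probes were detected per array. Median intensity was higher in round 2 (190.3 to 219.7) than in round 1 (149 to 176). The number of samples, not of arrays, limits the precision below, and an exact permutation test of 3 against 3 samples cannot give a p below 0.1.

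Car4 marked EpiLC among these cells and was brightest in EpiLC given tamoxifen. Its probe was detected on 8 of 19 arrays, which are all 8 EpiLC arrays and no ESC array. Raw intensity was 2943 to 7016 on the 5 arrays of EpiLC with tamoxifen and 1364, 1772 and 2545 on the 3 arrays of EpiLC with ethanol. On ESC arrays it was 143 to 206 with tamoxifen and 136 to 188 with ethanol, where it did not stand above the negative control beads. The standard error over the 29 to 53 beads of the Car4 probe was 2.52 to 5.41% of the intensity.

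After background correction, quantile normalization and adjustment for the hybridization round, the Car4 log2 levels were 12.28, 12.36 and 12.08 in EpiLC with tamoxifen and 10.99, 11.29 and 10.71 in EpiLC with ethanol. The 2 groups did not overlap, and the lowest tamoxifen sample lay above the highest ethanol sample. The difference was 1.24 on the log2 scale (SE 0.14, n = 3 samples per group), a 2.37-fold higher level with tamoxifen. Samples of the same number differed by 1.29, 1.07 and 1.37. Within round 1, where both EpiLC groups have arrays, the difference was 1.17 (SE 0.15). Of the 9422 genes tested, 34 had a larger difference in that direction, a rank that restates how Car4 was chosen and is no support. In bulk RNA, a larger share of Car4-expressing cells and more Car4 RNA per cell cannot be told apart.

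Car14 was likewise seen in EpiLC and not in ESC, but its level was lower with tamoxifen. The probe was detected on the same number of arrays as that of Car4, all 8 of EpiLC and 0 of 11 of ESC. Raw intensity was 383 to 597 on the EpiLC tamoxifen arrays and 723, 795 and 775 on the EpiLC ethanol arrays. The ESC arrays gave 164 to 232 with tamoxifen and 145 to 216 with ethanol. As with Car4, the round 2 arrays of a group were the brighter ones, and even these did not reach the EpiLC ethanol arrays of round 1.

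The normalized log2 levels of Car14 were 8.44, 8.49 and 8.42 in EpiLC with tamoxifen, against 9.55, 9.44 and 9.76 in EpiLC with ethanol. Each tamoxifen sample was below each ethanol sample. The difference was -1.13 (SE 0.10, n = 3 per group), which puts the tamoxifen level at 0.456 times the ethanol level. Samples of the same number differed by -1.11, -0.95 and -1.34. Within round 1 the difference was -0.99 (SE 0.16). In all, 6 of 9422 genes had a lower value in this contrast, a rank that likewise restates how Car14 was chosen. Thus 2 of the 3 members measured had EpiLC groups that did not overlap, 1 in each direction. Over all genes tested, 12.1% had groups that did not overlap with tamoxifen higher and 12.6% with tamoxifen lower, which are given for scale only, since the members were chosen on this contrast.

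**Figure D1:**
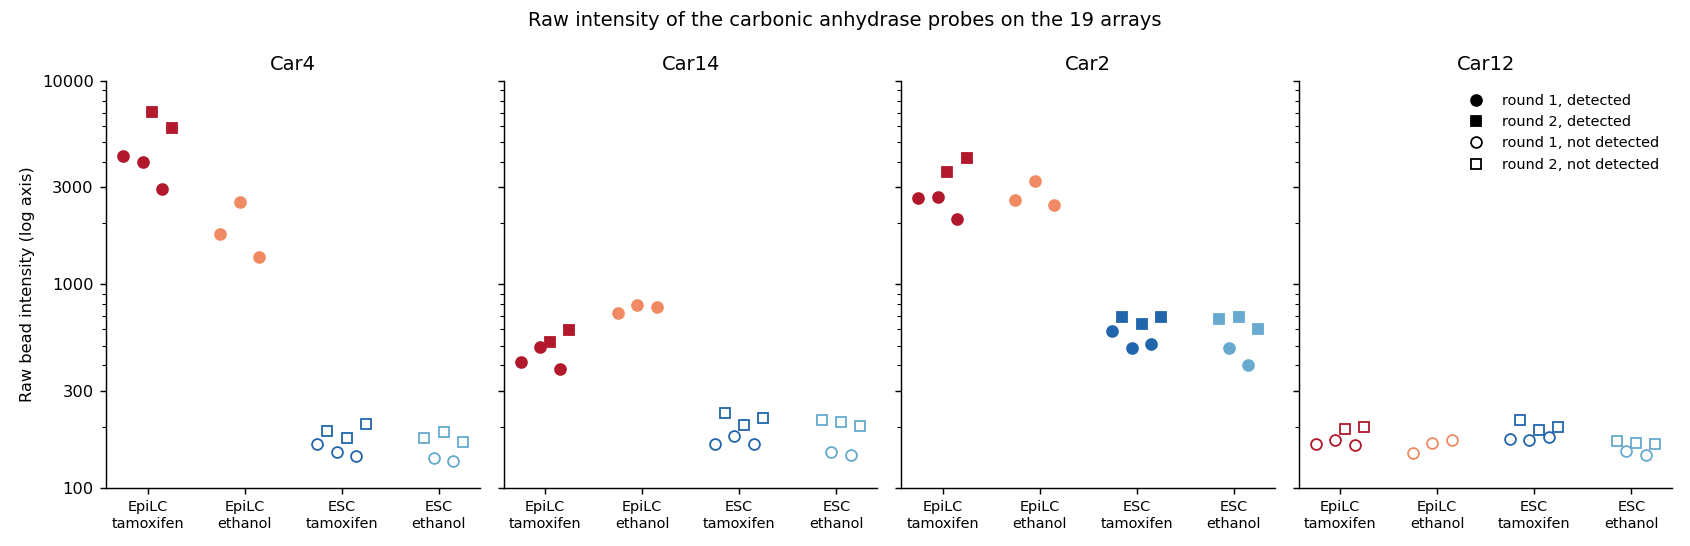
Raw bead intensity (log axis) of the probes of Car4, Car14, Car2 (the detected probe) and Car12 on the 19 arrays, by group, with circles for hybridization round 1, squares for round 2 and open symbols where the detection p-value was 0.01 or more. Car4 lies between 2943 and 7016 in EpiLC with tamoxifen and between 1364 and 2545 in EpiLC with ethanol, Car14 has the opposite order, and both are open symbols on every ESC array.

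Car2, the cytosolic enzyme, was detected on all 19 arrays by 1 probe, and its other probe was detected on 0 of 19. The normalized log2 levels of the detected probe were 11.47, 11.55 and 11.56 in EpiLC with tamoxifen and 11.45, 11.54 and 11.48 in EpiLC with ethanol. The EpiLC groups overlapped, with a difference of 0.04 (SE 0.08, n = 3 per group) that was -0.02 (SE 0.10) within round 1. The other Car2 probe had raw intensities of 133 to 185 over all arrays, and its lowest detection p-value was 0.177. Why one Car2 probe gave signal and the other none was not tested.

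Car12 was detected on 0 of 19 arrays, so it was not tested and is given by its raw values. Raw intensity was 163 to 199 in EpiLC with tamoxifen, 148 to 172 in EpiLC with ethanol, 172 to 214 in ESC with tamoxifen and 144 to 169 in ESC with ethanol. The lowest detection p-value was 0.0138, on an EpiLC ethanol array. In ESC the tamoxifen arrays were brighter than the ethanol arrays in both rounds, at 172 to 177 against 144 and 151 in round 1 and at 193 to 214 against 164 to 169 in round 2. The median intensity over all probes moved with the treatment too. It was 166 to 176 on ESC tamoxifen arrays and 149 and 154 on ESC ethanol arrays in round 1. In round 2 it was 205.8 to 219.7 with tamoxifen and 192.8 to 205.7 with ethanol, and its part in the Car12 values was not tested.

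In ESC, where Foxd3 deletion was induced in the same way, Car2 was the 1 member detected, and it did not pass the test. The ESC samples are not part of the EpiLC contrast on which Car4 and Car14 were chosen. The test is not fully independent of that choice, since its spread was estimated over all 4 groups. The members were also chosen with earlier results of these data known. At a Benjamini-Hochberg adjusted p under 0.05 from limma over all genes, Car2 was not called, while 9.10% of all 9422 genes tested were. Car4 and Car14 were not called either, but they were detected on no ESC array. A count over the 3 members is therefore not read against that share. Car2 had an unadjusted p under 0.05. The normalized log2 levels of Car2 were 8.69, 8.57 and 8.66 in ESC with tamoxifen and 8.75, 8.91 and 8.79 in ESC with ethanol. The groups did not overlap, as for 15.8% of all genes in that direction, and the difference was -0.18 (SE 0.08, adjusted p = 0.186, n = 3 per group). Its unadjusted p was 0.0394.

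Car4 stayed at background in ESC. Its normalized log2 levels were 4.82, 4.66 and 4.81 in ESC with tamoxifen and 4.59, 4.85 and 4.70 in ESC with ethanol, and the groups overlapped. The fitted difference was 0.05 (SE 0.14, adjusted p = 0.865). Since Car4 was detected in neither ESC group, no fold is given. Car14 was undetected there as well, at 5.27, 5.39 and 5.27 with tamoxifen and 5.51, 5.29 and 5.29 with ethanol, with a fitted difference of -0.05 (SE 0.10, adjusted p = 0.787). At this background a change of Car4 or Car14 in ESC was not detectable. Whether the tamoxifen effects differ between EpiLC and ESC was not tested, because the EpiLC effect chose the members.

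**Figure D2:**
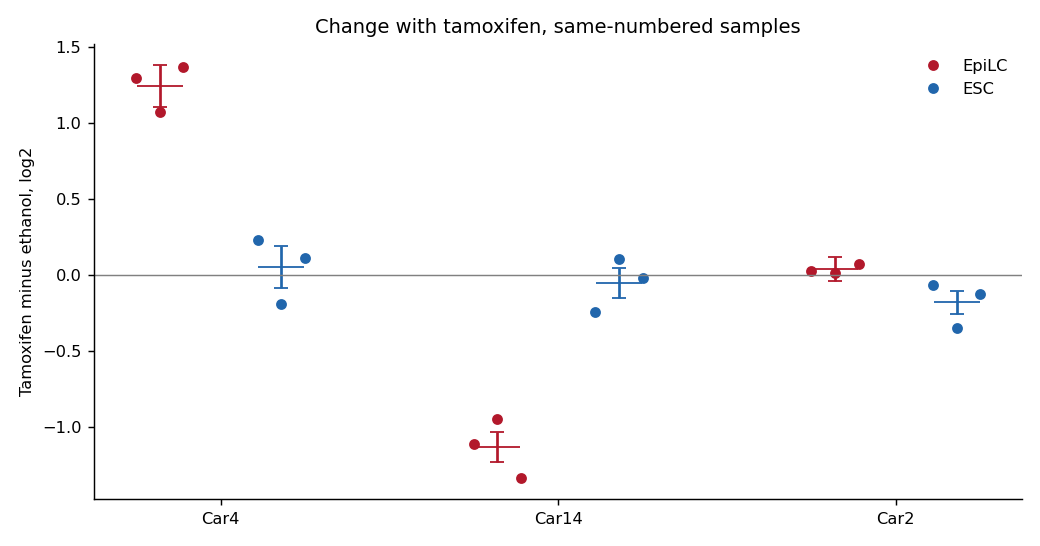
Tamoxifen minus ethanol in normalized log2 intensity for Car4, Car14 and Car2, with EpiLC left of ESC. Points are differences between samples of the same number, and bars are the group difference with its standard error (n = 3 samples per group). The 3 EpiLC points of Car4 lie between 1.07 and 1.37 and those of Car14 between -1.34 and -0.95, while the ESC points of both lie around 0, where neither probe was detected.

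The comparison of the cell states asks which genes change as ESC become EpiLC, and all 3 members were higher in EpiLC under either treatment. The EpiLC samples also entered the choice of Car4 and Car14, and the 2 cell-state contrasts use different samples from each other. Car4 and Car14 passed the filter through EpiLC arrays alone, so the filter fixed their direction, and Car2 was the 1 member measured in both cell states. At an adjusted p under 0.05, 29.4% of all genes were higher in EpiLC in tamoxifen and 29.8% in ethanol. Groups did not overlap, with EpiLC higher, for 33.1% of all genes in tamoxifen and 32.9% in ethanol. These shares are given for scale, and nothing is read from the count of members against them.

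Car4 and Car14 have no measured level in ESC, so their change is given as a bound, in which each ESC array was raised to its own lowest detected signal before the EpiLC mean was divided by the ESC mean. On this basis Car4 was at least 85.7-fold higher in EpiLC than in ESC in tamoxifen and at least 32.1-fold higher in ethanol. Car14 was at least 6.18-fold higher in EpiLC in tamoxifen and at least 12-fold higher in ethanol. Both genes were called by limma on the measured levels in both treatments. No p is given, since the filter fixed the direction and the bound itself was not tested.

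Car2 was measured on both sides of this comparison. It was higher in EpiLC by 2.89 on the log2 scale in tamoxifen (7.42-fold, SE 0.08, adjusted p = 1.43e-10) and by 2.67 in ethanol (6.38-fold, SE 0.08, adjusted p = 2.72e-10). In order of level, Car2 was high in both EpiLC groups, which overlapped, and lower in both ESC groups, whose difference did not pass the test.

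Across the 12 samples the members followed the cell state. Pearson correlations were 0.991 between Car2 and Car4, 0.972 between Car2 and Car14 and 0.939 between Car4 and Car14. The points share 2 cell states that lie far apart for every member, so these values mostly describe that split. Among 8679 other named genes, those with the most similar pattern to Car4 were Tpm1, a tropomyosin (r = 0.997), Slc40a1, the iron exporter ferroportin (r = 0.997), Vstm2b (r = 0.996), Fgf5 (r = 0.995) and Gbp2, an interferon-induced GTPase (r = 0.995).

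The genes most like Car14 were Rxrg, a retinoid X receptor (r = 0.996), Syt11, a synaptotagmin (r = 0.995), Car3 (r = 0.994), Lsm6, an RNA-binding protein (r = 0.994), and Dnmt3b, a de novo DNA methyltransferase of the epiblast (r = 0.994). Those most like Car2 were the chemokine Cxcl12 (r = 0.998), Fgf5 (r = 0.998), the POU factor Pou3f1 (r = 0.998), the lipid flippase Atp10a (r = 0.996) and the immunity-related GTPase Irgm2 (r = 0.996). Fgf5 was in the lists of both Car2 and Car4. By Spearman's rank correlation the 5 genes named for each member were all different ones, so these lists depend on the measure of likeness.

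Of 12 other carbonic anhydrase genes looked for, 8 have probes on the array and 4 passed the filter. Those 4 are Car3, a slow cytosolic enzyme best known from muscle, Car7 and Car13, which are cytosolic enzymes, and Car11, a family member without catalytic activity. Car5b, Car6, Car9 and Car15 were detected on 0 arrays. In EpiLC against ESC, 2 of the 4 were called higher and 0 lower in each treatment, and 1 of these, Car3, passed the filter through EpiLC arrays alone. Over all genes, 29.4% were higher and 27.1% lower in tamoxifen, and 29.8% and 26.5% in ethanol, which are given for scale only.

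Car3 had the pattern of Car14. Its normalized log2 levels were 6.19, 6.04 and 6.12 in EpiLC with tamoxifen and 6.97, 6.75 and 6.70 in EpiLC with ethanol. It was detected on 4 of 5 arrays of EpiLC with tamoxifen, 3 of 3 of EpiLC with ethanol and no ESC array. With tamoxifen Car3 fell by 0.69 in EpiLC (SE 0.09, adjusted p = 0.00148), and its normalized groups did not overlap. The size depended on the background. The difference was -0.25 in the authors' table (adjusted p = 0.00988) and -0.25 without background correction (adjusted p = 0.0163). Raw intensity over both rounds was dim, at 163 to 294 on the EpiLC tamoxifen arrays and 207 to 237 on the EpiLC ethanol arrays. Car3 was at least 1.23-fold higher in EpiLC than in ESC in tamoxifen and at least 1.76-fold higher in ethanol. No p is given for these bounds, since the filter fixed their direction. It was the 1 gene of these 4 called in EpiLC with tamoxifen, against 6.90% of all genes.

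Car13 differed in ESC. Its normalized log2 levels were 8.76 to 9.37 in the 3 samples of ESC with tamoxifen, all below the 9.79, 9.74 and 9.66 of ESC with ethanol. The fall was 0.69 (SE 0.14), and it was the 1 gene of the 4 called there (adjusted p = 0.00875), against 9.10% of all genes. In round 1 arrays alone, which leave 2 ESC ethanol samples, the Car13 difference was of similar size, at -0.68 (SE 0.18), and was not called (adjusted p = 0.0638). In tamoxifen, the EpiLC level of Car13 exceeded that of ESC by 0.52 (SE 0.14, adjusted p = 0.00655), while in ethanol the difference was 0.04 (SE 0.14, adjusted p = 0.799). The mean EpiLC levels of Car13 were 9.56 with tamoxifen and 9.78 with ethanol.

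In tamoxifen, Car11 differed between EpiLC and ESC by 0.09 (SE 0.24, adjusted p = 0.764), and in ethanol it was higher in EpiLC by 0.68 (SE 0.24, adjusted p = 0.0280). In ethanol, 1 of the 4 genes stayed called in place of 2 without ESC sample 2 or without EpiLC sample 1 or 3. In every group sample 2 had the lowest Car11 level, at 7.29 in EpiLC with tamoxifen, 7.90 in EpiLC with ethanol, 7.21 in ESC with tamoxifen and 7.10 in ESC with ethanol. With tamoxifen the Car11 difference in EpiLC was -0.64 (SE 0.24, adjusted p = 0.135). With the replicate block it was called, at the same size (SE 0.08, adjusted p = 0.00310). Car7 was detected on 4 of 19 arrays and was not called in any contrast. Over the 4 genes, the median difference in EpiLC against ESC was 0.30 in tamoxifen and 0.36 in ethanol, against 0.01 and 0.03 over all genes. Since Car3 passed the filter through EpiLC arrays alone, these medians describe the list and are not read against all genes.

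**Figure D3:**
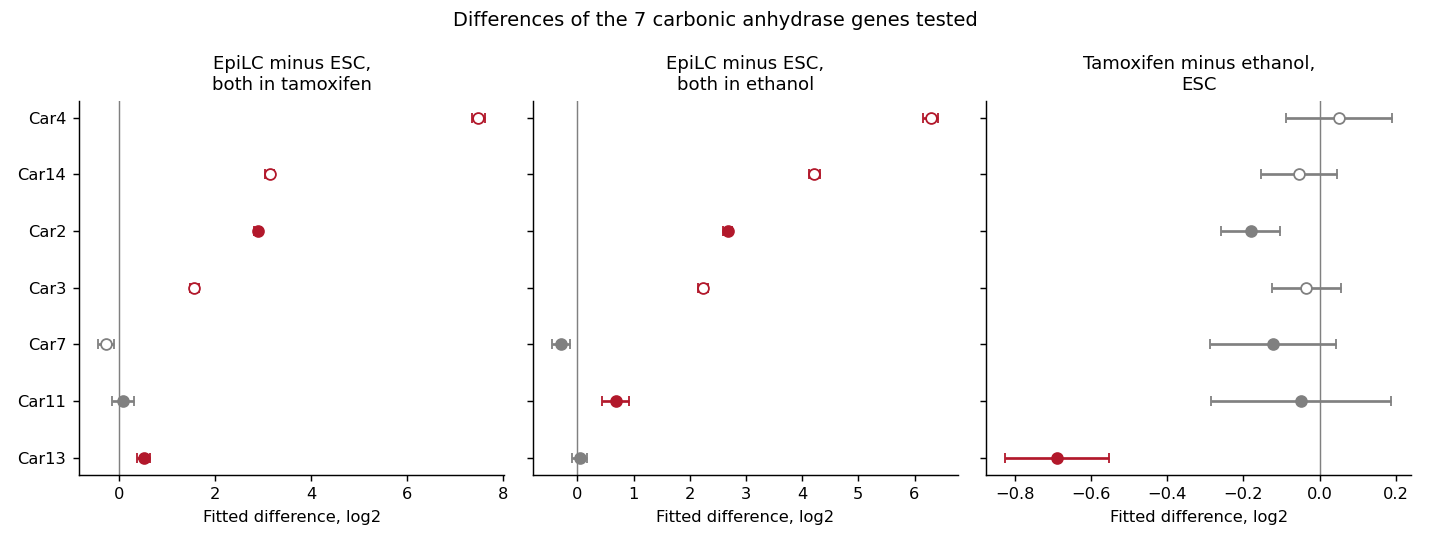
Fitted log2 differences with standard errors (n = 3 samples per group) of the 7 carbonic anhydrase genes that passed the filter, for EpiLC minus ESC in tamoxifen, EpiLC minus ESC in ethanol and tamoxifen minus ethanol in ESC. Red marks an adjusted p under 0.05, and open symbols mark genes undetected on every array of a group, whose size depends on the background. Car4, Car14, Car2 and Car3 are higher in EpiLC in both treatments, and Car13 is the 1 gene called in ESC.

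Carbonic anhydrases work beside bicarbonate transporters, and 7 of 19 such genes passed the filter. In EpiLC against ESC, 1 of the 7 was called higher and 5 lower in tamoxifen, where 27.1% of all genes were lower, and 1 was called higher and 4 lower in ethanol, where 26.5% of all genes were lower. Of the 5, Slc4a1, Slc26a6 and Slc26a9 were undetected in EpiLC with tamoxifen, and of the 4, Slc4a1 was detected in neither ethanol group, so that call is not a measured difference. Since Slc4a1, Slc4a11 and Slc26a9 passed the filter through ESC arrays alone, the counts and medians describe the list and are not read against all genes. The median difference was -0.90 in tamoxifen and -0.44 in ethanol, against 0.01 and 0.03 over all genes. Slc4a8, a sodium-driven chloride and bicarbonate exchanger, had normalized log2 levels of 8.30 in EpiLC and 9.64 in ESC in tamoxifen, a difference of -1.34 (SE 0.16, adjusted p = 2.34e-05), and it differed by -1.62 in ethanol (SE 0.16, adjusted p = 4.57e-06). Slc4a2, a chloride and bicarbonate exchanger of most tissues, differed by -1.31 in tamoxifen (SE 0.15, adjusted p = 1.80e-05) and by -0.84 in ethanol (SE 0.15, adjusted p = 5.33e-04). Slc4a1, the anion exchanger of red blood cells, was undetected in EpiLC with tamoxifen and at least 1.22-fold higher in ESC with tamoxifen. Slc4a3, a related exchanger, was the gene that was higher in EpiLC, by 0.70 in tamoxifen (SE 0.12, adjusted p = 3.11e-04) and 0.85 in ethanol (SE 0.12, adjusted p = 6.87e-05).

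With tamoxifen, 3 of the 7 bicarbonate transporters passed the test in ESC, all with a positive difference, where 5.59% of all genes were higher. Of these 3, Slc4a1 and Slc26a9 passed the filter through ESC tamoxifen arrays alone, which fixed their direction. The count is therefore not read against that share, and no p is given for these 2 genes. Slc4a2, the 1 of the 3 measured in both groups, rose by 0.65 (SE 0.15, adjusted p = 0.0216). Slc4a1 was detected on 5 of 6 ESC tamoxifen arrays and 0 of 5 ESC ethanol arrays and was at least 1.09-fold higher. Slc26a9 was detected on 4 of 6 and 0 of 5 of those arrays, and its bound is below 1, so no fold is given. The median intensity of the ESC arrays moved with the treatment, as given for Car12, and its part in these calls was not tested. The 2 red blood cell markers with probes did not pass the filter, although Hba-a1 was detected on 2 of the 6 ESC tamoxifen arrays. Without ESC tamoxifen sample 2 or 3, or ESC ethanol sample 1 or 3, 1 of the 7 was called in ESC. In EpiLC, 1 of the 7 was called, against 6.90% of all genes. This was Slc4a8, with normalized log2 levels of 8.30 with tamoxifen and 7.68 with ethanol, a rise of 0.63 (SE 0.16, adjusted p = 0.0390). That call was lost without background correction, without the filter, with array weights, with the mean over the probes of the gene and in round 1 alone (adjusted p = 0.0530 to 0.155). It was also lost without any 1 of EpiLC tamoxifen samples 1, 2 and 3, EpiLC ethanol samples 1 and 2, ESC tamoxifen sample 2 and ESC ethanol sample 2.

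Of 19 proton and lactate transport genes, 6 passed the filter, and 3 of these were higher and 0 lower in EpiLC than in ESC in each treatment. Over all genes, 29.4% were higher and 27.1% lower in tamoxifen, and 29.8% and 26.5% in ethanol. These shares are given for scale only. Emb, embigin, a partner of lactate transporters, was higher by 2.98 in tamoxifen (SE 0.16, adjusted p = 3.60e-08) and 3.08 in ethanol (SE 0.16, adjusted p = 2.51e-08). Slc16a3, a lactate exporter of glycolytic cells, was undetected in ESC and at least 3.02-fold higher in EpiLC in tamoxifen and at least 3.37-fold higher in ethanol. It passed the filter through EpiLC arrays alone, so no p is given. Slc9a3r1, a scaffold for sodium and proton exchangers, was higher by 0.71 in tamoxifen (SE 0.12, adjusted p = 3.32e-04) and 0.77 in ethanol (SE 0.12, adjusted p = 1.67e-04). With tamoxifen, Hvcn1, the voltage-gated proton channel, fell by 0.48 in ESC (SE 0.11, adjusted p = 0.0246), against 3.50% of all genes lower. The call was lost under equal-median scaling (adjusted p = 0.106), in round 1 alone (0.141), in round 2 alone (0.0863) and without any 1 of ESC tamoxifen samples 1 and 2 and ESC ethanol samples 1, 2 and 3. In EpiLC 0 of the 6 were called by limma with tamoxifen, against 6.90% of all genes, and 1 of them had an unadjusted p under 0.05.

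**Figure D4:**
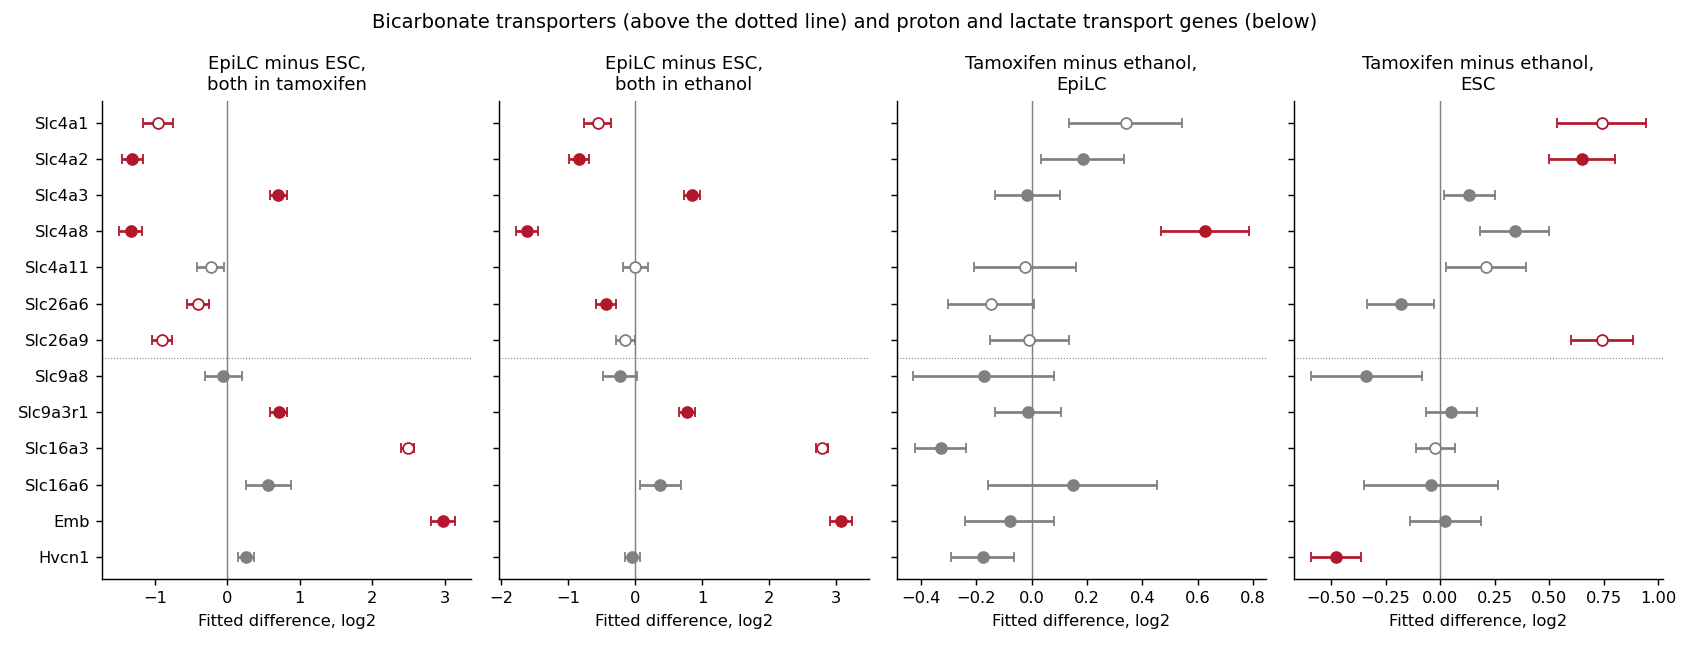
Fitted log2 differences with standard errors (n = 3 samples per group) of 7 bicarbonate transporters and 6 proton and lactate transport genes, for EpiLC minus ESC in tamoxifen, EpiLC minus ESC in ethanol, tamoxifen minus ethanol in EpiLC and tamoxifen minus ethanol in ESC. Red marks an adjusted p under 0.05, and open symbols mark genes undetected on every array of a group. Emb and Slc16a3 lie furthest to the right and Slc4a8 and Slc4a2 to the left in the cell-state contrasts.

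Some markers of other cell types also moved with tamoxifen. In EpiLC the summed normalized intensity of the trophoblast list (2 of 4 genes tested) was 530.4 to 534.6 with tamoxifen and 216 to 313 with ethanol. Its gene Gata3 was at a normalized log2 level of 8.84 with tamoxifen and 7.54 with ethanol. The other tested gene, Cdx2, was level, at 6.21 with tamoxifen and 6.19 with ethanol, and Elf5 and Hand1 were undetected on every EpiLC array. In ESC the primitive endoderm list, of which Gata6 alone was tested, was at 269 to 483 with tamoxifen and 81.0 to 121 with ethanol, while Gata4 and Sox17 were undetected on every ESC array. The mesoderm list in EpiLC, of which Gsc alone was tested, was at 221 to 320 with tamoxifen and 120 to 187 with ethanol, and Eomes was detected on 2 and Mixl1 on 1 of the 5 tamoxifen arrays and on 0 of the 3 ethanol arrays. The primitive endoderm list overlapped in EpiLC, at 110 to 147 with tamoxifen and 101 to 127 with ethanol, with Sox17 and Sox7 detected on 2 of 5 tamoxifen arrays each, Pdgfra on 1 and Gata4 on 0, and these 4 on 0 of 3 ethanol arrays. The fibroblast list in ESC, of which Thy1 alone was tested, was at 156 to 208 with tamoxifen and 256 to 268 with ethanol, while Col1a1, Col1a2 and Postn were undetected on every array. Beside Car4 and Car14 in EpiLC, the summed naive ESC list was higher and the summed epiblast list lower with tamoxifen, in ranges that did not overlap. The epiblast genes did not move together. Dnmt3b, the brightest, was at a mean log2 level of 14.23 with tamoxifen and 14.63 with ethanol. Fgf5 (11.89 against 11.44) and Otx2 (11.58 against 11.23) were higher, and Pou3f1 was level (11.62 against 11.59). Of the naive genes tested, Nanog was lower (11.79 against 11.99) and the others were higher. The summed shared pluripotency list was lower in ESC with tamoxifen, at 19073 to 19442 against 21868 to 22166 with ethanol. There Sall4 was level (12.84 in both), and Pou5f1, Sox2 and Utf1 had lower means. In EpiLC the ranges of this list overlapped, at 19717 to 22466 with tamoxifen and 18960 to 20309 with ethanol. The part of all these markers in the carbonic anhydrase values was not tested.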

How the data were processed

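Per the file headers, the deposited raw table gives for each probe and array a mean bead intensity on a linear scale, a detection p-value, the standard error over beads (a bead signal) and how many beads were read. Another deposited table holds the authors' between-array normalized intensity values, made with limma per the submitters' processing notes, and served as an alternative. Here neqc (limma 3.58.1, R 4.3.3, offset 16) corrected the background of the 19 raw arrays and normalized them by quantiles, and a fit of sample plus hybridization round gave 1 log2 value per sample (7 samples had arrays in both rounds and 5 in 1). Of 25697 probes, 12529 had 3 or more arrays with a detection p-value under 0.01. Symbols came from the platform annotation, updated by gene ID for 23962 probes and by accession for 9. The probe with the highest mean stood for a gene, which left 9422 features.

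The 12 sample values were fitted by group with limma (lmFit, eBayes), with Benjamini-Hochberg adjustment over all genes tested, and a gene was called at an adjusted p under 0.05. The script was tested on simulated data for the tamoxifen contrast in ESC alone. The simulated samples were drawn independently, so without the likeness of same-numbered samples given below. The members, the gene lists and the rule for named genes (the members, other carbonic anhydrases that passed the filter, up to 3 called genes per transport list and contrast with the largest change, and the 5 genes most correlated with each member) were chosen with earlier results of these data known. Samples of the same number were alike: deviations from the group means correlated between same-numbered tamoxifen and ethanol samples at 0.547, 0.567 and 0.498 in EpiLC and at 0.399, 0.371 and 0.470 in ESC. The main fit has no term for this pairing, so its p-values and shares of genes called leave it out. The replicate block, among the alternatives, adds it. The alternatives were equal-median scaling, the authors' table, no background correction, other filters, the replicate block, single rounds, no round term, array weights, other probe rules and leaving out each sample.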

Additional observations from a re-analysis of the deposited data

Results flagged for a closer look

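The Car2 differences with tamoxifen were small and of opposite sign in EpiLC, where the groups overlapped, and in ESC, where the test was not passed (adjusted p = 0.186). The mean difference between same-numbered samples, tamoxifen minus ethanol, was 0.038 on the log2 scale in EpiLC, where all 3 pairs were higher with tamoxifen (0.03, 0.01 and 0.07). In ESC it was -0.18, where all 3 pairs were lower (-0.07, -0.35 and -0.13). The difference between the cell types was not tested, and the EpiLC direction turned under equal-median scaling and within round 1.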

How the results depend on the processing

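No tested call of Car2, Car4 or Car14 changed under any alternative run. For Car2, the differences between EpiLC and ESC stayed called, with fitted log2 values of 2.52 to 2.93 in tamoxifen and 2.34 to 2.80 in ethanol. Those of Car4 and Car14 stayed called too, but the filter fixed their direction, so this is no further support. The fitted values of Car4, 4.94 to 7.56 in tamoxifen and 3.76 to 6.43 in ethanol, set EpiLC against ESC background. The changes in ESC stayed uncalled, where Car4 and Car14 were not detected. The tamoxifen difference in EpiLC moved to 2.31 for Car4 in the authors' table. For Car14 it was -0.88 in that table, -0.85 without background correction and -0.99 in round 1. For Car2 it was -0.11 under equal-median scaling and -0.025 in round 1.

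With the replicate block, no other call of a member changed, but the genes called with tamoxifen numbered 1882 in EpiLC (650 without it) and 2041 in ESC (857 without it). The EpiLC count was 1068 in the authors' table and 335 in round 1. The ESC count was 393 in round 1 and 1452 with array weights. Leaving out 1 sample gave 348 to 610 genes in EpiLC and 530 to 900 in ESC. The EpiLC count was lowest without tamoxifen sample 3 (348) and was 409 without ethanol sample 1 and 417 without tamoxifen sample 2. The ESC count was 530 and 536 without ethanol samples 1 and 3, and 546 and 542 without tamoxifen samples 1 and 3.

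Equal-median scaling gave 316 higher and 241 lower genes in EpiLC (448 and 202 with quantiles), 797 and 120 in ESC (527 and 330), and 2098 and 3008 in EpiLC against ESC in tamoxifen (2772 and 2558), where it set the median of all genes at -0.10. Counts over the gene lists moved by over 1.5 times in 5 of 89 alternatives for other carbonic anhydrases, 23 of 89 for bicarbonate transporters and 16 of 89 for proton and lactate transport. Without background correction, and in round 1, 0 bicarbonate transporters were called in EpiLC with tamoxifen. The genes most like a member by Spearman correlation shared 0 of 5 names with those by Pearson correlation for Car2, Car4 and Car14. The signal over background limits Car4 and Car14 in ESC and Car12 everywhere.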

Other observations

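The authors' normalized table gives Car4 levels in ESC that the raw table does not show. On the 5 ESC arrays of round 1 the authors' deposited values are 269 to 284, where the raw intensities are 136 to 164. On the 6 ESC arrays of round 2 they are 3.40 to 20.1, where the raw intensities are 168 to 206. Car4 is 1 of 2 probes, of 25697, whose authors' value lies under 50 on all 6 of these round 2 arrays. Set against quantile-normalized raw intensities, the authors' Car4 values were higher by a mean of 117 on the round 1 arrays and lower (mean difference -170) on the round 2 arrays, with an SD of 38.5 within a round, in EpiLC and ESC together. For Car14 these mean differences were -4.39 and 6.56, and for the detected Car2 probe 16.6 and -24.7. On a log2 scale, the authors' table thus gives a Car4 difference of 0.96 between ESC with tamoxifen and ESC with ethanol (SE 0.53, adjusted p = 0.278), against 0.05 from the raw table, although the Car4 probe was detected on no ESC array.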
